A study of Mus musculus with 18 samples.

Results

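Loss of the second Myt1l allele was examined by setting KO embryos, in which both alleles carry a frameshift, against Het embryos, in which 1 allele does. The nuclei compared were glutamatergic or GABAergic by marker counts and came from the mouse forebrain at embryonic day 14 (E14). The question was what changes between 1 normal allele and none, a step that the usual comparisons with wild type (WT) littermates contain but do not isolate. With the replicate number as a block, 53 genes were called in glutamatergic nuclei, 35 higher and 18 lower in KO, and 2 genes in GABAergic nuclei. Among glutamatergic genes Slc15a2, a peptide transporter, Trpm3, a cation channel, and Cntnap5b, a cell adhesion protein, were higher in KO. Grm5, a glutamate receptor, Ryr2, a calcium release channel, and Cadm2, a synaptic adhesion protein, were lower. Trpm3, Grm5 and Cadm2 were called with the block whichever of the 9 animals was left out. Ryr2 was called in 8 of those 9 fits, and Slc15a2 and Cntnap5b in 5 each. KO levels of Slc15a2 lay within the WT range. Without the block edgeR called no gene in either class, and DESeq2 called 7 in glutamatergic and 0 in GABAergic nuclei.

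The mice belong to the Myt1l S710fsX line on a C57BL/6 background, in which the frameshift is constitutive and present in every cell, not in neurons alone. Homozygous animals of this line do not live past birth. Forebrain was dissected at E14 and frozen per the labels, although 1 passage of the study's methods speaks of prefrontal cortex, and nuclei were barcoded in a plate-based single-nucleus RNA assay. The 3 Het and 3 KO embryos (12 of the 18 libraries, since each embryo was measured in 2 runs) are compared here, and the 3 WT embryos, with no mutated allele, entered the fits to share the estimate of spread. The labels name no treatment. The titles give the genotypes; the genotype entry of the run 1 libraries reads WT for every animal and goes against those titles, and the titles were followed.

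Members were chosen by marker counts, so those counts are a description and not a result. A nucleus was glutamatergic when the counts of Neurod2 and Neurod6, transcription factors of excitatory cortical neurons, summed to at least 2 with no count of Gad1, Gad2 or Dlx6os1. It was GABAergic when the latter 3 genes, which encode GABA-synthesizing enzymes and a noncoding RNA of the Dlx locus, summed to at least 2 with no Neurod2 or Neurod6. Of 201913 nuclei of the series within the quality limits, 131130 came from Het and KO embryos, and the rule took 56509 of these: 19557 glutamatergic (9322 Het, 10235 KO) and 36952 GABAergic (17648 Het, 19304 KO). Just inside the threshold lay 9293 glutamatergic and 3287 GABAergic nuclei at the minimum of 2 counts, and just outside lay 15621 and 5658 with 1. Another 7016 nuclei had markers of both kinds and were left out, which also removes doublets of a glutamatergic and a GABAergic nucleus but not of 2 alike. No doublet caller was run.

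Each Het or KO animal gave 2195 to 4540 glutamatergic nuclei with 7402970 to 14382200 UMIs (unique molecular identifiers, which count RNA molecules), and 3693 to 8326 GABAergic nuclei with 10934513 to 22830069 UMIs. KO replicate 1 was the shallowest animal in both classes. Among nuclei within the quality limits, the Het and KO libraries shared 90 barcodes within an animal and 1021 between animals. All 6 animals had RNA of the 4 Y-linked genes counted (493 to 582 CPM, counts per 1000000 UMIs) and 0.418 to 0.606 CPM of Xist, the pattern of males, while the study's methods describe mixed sexes; WT replicate 3 had the female pattern, with 360.1 CPM of Xist. The class names were checked with 9 other genes each. In glutamatergic nuclei the 9 glutamatergic genes, such as the vesicular glutamate transporter Slc17a6, summed to between 1734 and 2102 CPM and the 9 GABAergic genes to between 27.2 and 39.2 CPM. In GABAergic nuclei the GABAergic genes summed to between 831 and 1082 CPM and the glutamatergic genes to between 367 and 492 CPM, of which Mef2c alone, a gene of both classes, made 270 to 374 CPM. Het and KO overlapped in all 4 sums.

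MYT1L is a zinc finger transcription factor made by nearly all neurons from the time they leave the cell cycle. It binds a short AAGTT core and can recruit corepressors that contain SIN3 and histone deacetylases, and it is best known for keeping genes of other lineages and of progenitors low in neurons. Glutamatergic neurons of the forebrain arise mostly in the dorsal ventricular zone, whereas GABAergic neurons arise in the ganglionic eminences below it and stay as striatal neurons or migrate as interneurons. Myt1l lies on chromosome 12 at 29528384 to 29923213 (+ strand, GRCm38). The bases around codon 710 are shown because they hold the serine that names the allele. They are the normal reference sequence of transcript Myt1l-202 (1187 codons, codon 710 in exon 15 of 25, chr12:29849337-29849339), with the codon, AGC for serine, in capitals. In the shorter transcripts Myt1l-201 and Myt1l-205 (1185 codons) codon 710 is an alanine, so the name of the allele follows the longer protein. The altered bases of the mutant allele are not shown.
Myt1l-202 codon 710: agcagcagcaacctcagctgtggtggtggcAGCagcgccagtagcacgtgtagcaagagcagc

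Myt1l RNA was counted first. In glutamatergic nuclei it stood at 1995, 2269 and 2236 CPM in Het replicates 1, 2 and 3 and at 2301, 2545 and 2361 CPM in the KO replicates. Every KO animal was above every Het animal, and the WT animals (1803, 2049 and 1936 CPM) reached into the Het range. The change from Het to KO was 0.16 on the log2 scale (SE 0.0453) and was not called, with an edgeR adjusted p of 0.186 with the replicate block and 0.9998 without it. In GABAergic nuclei Myt1l was at 1355, 1445 and 1501 CPM in Het and at 1683, 1532 and 1495 CPM in KO. There the groups overlapped, and the change was 0.14 (SE 0.0625; edgeR adjusted p 0.90001 with the block). A frameshift leaves RNA that can be counted, so its level cannot serve as a check on the genotypes, and the protein was not measured in these files. The related genes Myt1 and St18 changed by 0.08 and 0.01 in glutamatergic nuclei and were not called.

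**Figure D1:**
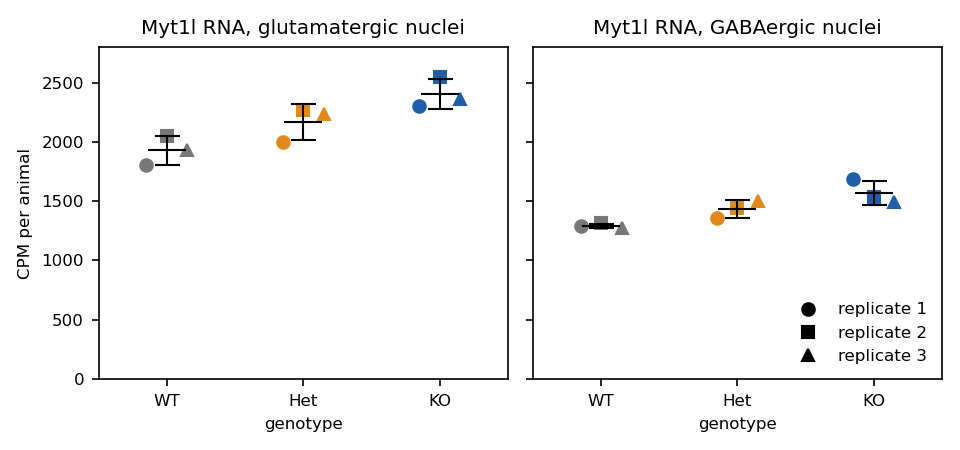
Myt1l RNA in CPM (y axis) for each animal by genotype (x axis), in glutamatergic (left) and GABAergic nuclei (right); marker shapes give the replicate number, lines the mean and bars 1 SD over 3 animals. In glutamatergic nuclei the 3 KO animals, at 2301 to 2545 CPM, all stand above the 3 Het animals.

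A gene was called when its Benjamini-Hochberg adjusted p in edgeR's quasi-likelihood test was under 0.05 over all genes tested and its log2 change exceeded 0.2 in size. In glutamatergic nuclei, with genotype alone in the model, none of 17322 genes was called (0%), while 757 had an unadjusted p under 0.05 and the smallest adjusted p was 0.278. DESeq2 called 7 genes in the same design: Cntnap5b, Gm20754, Grm3, Fgf14 and Trpm3 higher in KO, and Cadm2 and Nrg2 lower. With the replicate number as a block, 53 genes (0.306%) were called, 35 higher in KO (0.202%) and 18 lower (0.104%), and 1346 genes had an unadjusted p under 0.05. All 7 DESeq2 genes were among these 53. DESeq2 with the block called 31 genes, and 29 of the 53 were among them. Slc15a2, Cntnap5b, Ntng1 and Sorcs3 were among those that DESeq2 with the block did not call. Het and KO animals did not overlap for 1532 of all 17322 genes (8.84%), and for 33 of the 35 and 13 of the 18 called genes, which the calls themselves favour.

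The number of calls depended on single animals. Without Het replicate 1, 2 or 3 the blocked fit called 18, 11 or 19 genes, without KO replicate 1 or 2 it called 25 or 17, and without KO replicate 3 it called 106. Leaving out a WT animal gave 45 to 66. Grm5, Fyco1, Cadm2, Nrg2 and Trpm3 were called whichever of the 9 animals was left out, while 15 of the 53 were called in at most 3 of these 9 fits. Run 1 alone, with 24.6% of the glutamatergic UMIs, gave 0 calls by edgeR, and run 2 alone gave 51. When a nucleus needed at least 3 marker counts, 23 of the 53 were still called, and Fyco1 and Ryr2 were not among them. Losses given below refer to single animals left out unless another setting is named.

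**Figure D2:**
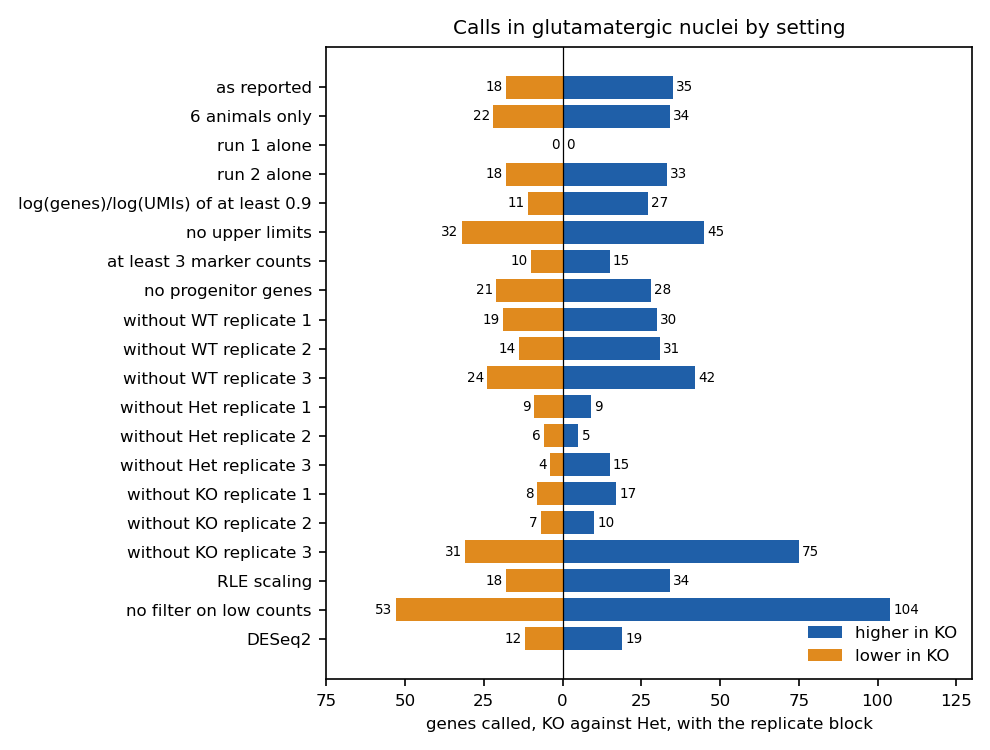
Number of genes called in KO against Het in glutamatergic nuclei with the replicate block (x axis), higher in KO to the right and lower to the left, under each setting (y axis). The 35 and 18 genes of the reported fit fall to 5 and 6 without Het replicate 2 and rise to 75 and 31 without KO replicate 3.

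The 35 genes higher in KO had a median fold of 1.32, and 4 of them changed by over 1 on the log2 scale. Because edgeR called no gene without the block, the genes given below were taken from the blocked fit, as the 6 largest changes in each direction at 20 CPM or more. Slc15a2, which encodes the proton-coupled peptide transporter PEPT2, had 19.2, 19.6 and 43.9 CPM in the Het replicates and 64.8, 67.0 and 63.6 CPM in the KO replicates. KO animals lay close together and above every Het animal, although the WT animals, at 52.3, 27.6 and 107 CPM, spanned both groups. The change was 1.32 (SE 0.229; edgeR adjusted p 0.00850 with the block, 0.908 without), and it was no longer called without any 1 Het animal or without KO replicate 2. Within a class, more nuclei of a subtype and more RNA per nucleus cannot be told apart from these sums.

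Trpm3, a cation channel opened by heat and steroids (chromosome 19, 22139046 to 22995410, + strand, GRCm38), had 179, 125 and 173 CPM in Het and 256, 225 and 236 CPM in KO. The lowest KO animal was above the highest Het animal. Its change of 0.62 (SE 0.0731) had the smallest adjusted p of the class, 0.000585 in edgeR with the block and 0.481 without. The microRNA gene Mir204 and 4 other annotated genes overlap the Trpm3 locus.

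Cntnap5b, a contactin-associated adhesion protein, had 74.7, 90.7 and 99.7 CPM in Het and 127, 137 and 113 CPM in KO. All KO animals were higher, by 0.51 (SE 0.0872; edgeR adjusted p 0.00739 with the block). The call was lost without Het replicate 1 or 2 or KO replicate 1 or 2. Fyco1, an adaptor that ties late endosomes and autophagosomes to kinesin, had 22.1, 18.7 and 20.9 CPM in Het and 32.7, 26.7 and 29.8 CPM in KO. The groups did not overlap, and the change was 0.54 (SE 0.0822; edgeR adjusted p 0.00271 with the block). Gm20754, a predicted gene, had 144, 123 and 157 CPM in Het and 230, 197 and 186 CPM in KO. It was higher in every KO animal, by 0.55 (SE 0.0771; edgeR adjusted p 0.00206 with the block, lost without Het replicate 2).

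Lpl, lipoprotein lipase, shows what the block does. It had 11.8, 26.0 and 23.8 CPM in Het and 16.2, 38.5 and 36.6 CPM in KO. Replicate 1 was low in both genotypes, so the groups overlapped, but the KO animal was higher in each pair. The change was 0.58 (SE 0.0888), with an edgeR adjusted p of 0.00271 with the block, lost without Het replicate 2, and of 0.9998 without it.

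Several other genes were called higher in KO. The metabotropic glutamate receptor gene Grm3 had 14.7, 14.1 and 15.2 CPM in Het and 20.9, 25.3 and 20.8 CPM in KO, a change of 0.62. The AMPA receptor subunit gene Gria4 had 223, 207 and 228 CPM in Het and 294, 271 and 251 CPM in KO, a change of 0.32. Neither gene's groups overlapped. Fgf14, which encodes a regulator of sodium channels, changed by 0.32, Cacna1e, the R-type calcium channel, by 0.24, and Rimbp2, a protein of the presynaptic active zone, by 0.41. Phf21a, which encodes a histone reader of the LSD1 corepressor complex, had 669, 718 and 618 CPM in Het and 830, 820 and 735 CPM in KO. KO animals were all higher, by 0.26 (SE 0.0516; edgeR adjusted p 0.0252 with the block, 0.846 without), and the call was lost without any 1 Het animal or without KO replicate 1 or 2. Slit3, a guidance ligand of Robo receptors, changed by 0.40 with overlapping groups. Mtmr11, Glrx, Pcsk1 and Esyt1 had the other large changes, 0.75 to 1.15, but stood under 10 CPM in every Het and KO animal and were called in 5, 1, 2 and 2 of the 9 fits that leave out 1 animal. Hdac8, a histone deacetylase gene on the X chromosome, was the only sex-linked gene called, with a change of 0.25. Of the 9 fits that leave out 1 animal, Fgf14 was called in 8 (lost without Het replicate 2) and Grm3 in 7 (lost without Het replicate 2 or KO replicate 2). Gria4 was called in 5 (lost without Het replicate 1 or 2 or KO replicate 1 or 2) and Slit3 in 5 (lost without any 1 Het animal or KO replicate 1). Rimbp2 was called in 4 (lost without any 1 Het animal or KO replicate 2 or 3), Hdac8 in 3 and Cacna1e in 1, without WT replicate 3.

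The 18 genes lower in KO had a median fold of 1.33. Grm5, the metabotropic glutamate receptor that couples to calcium release (chromosome 7, 87584168 to 88134907, + strand, GRCm38), had 196, 172 and 266 CPM in Het and 151, 120 and 170 CPM in KO. All 3 KO animals were lower. The change was -0.51 (SE 0.0714; edgeR adjusted p 0.00206 with the block, 0.815 without), and it was called in 18 of the 19 other settings of the blocked fit, the exception being run 1 alone. Ryr2, the channel that releases calcium from the endoplasmic reticulum, had 50.3, 42.8 and 50.9 CPM in Het and 36.2, 32.4 and 35.0 CPM in KO. These groups stood apart, with a change of -0.46 (SE 0.0690; edgeR adjusted p 0.00263 with the block, lost without Het replicate 3). Rgs7, which shuts off G protein signalling, had 88.7, 73.4 and 93.0 CPM in Het and 64.0, 57.7 and 67.3 CPM in KO. It was lower in every KO animal, by -0.42 on the log2 scale (SE 0.0608; edgeR adjusted p 0.00252 with the block, lost without Het replicate 3).

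Xkr4, of a family of lipid scramblases, had 311, 283 and 389 CPM in Het and 269, 221 and 274 CPM in KO. The groups did not overlap and the change was -0.35 (SE 0.0592; edgeR adjusted p 0.00729 with the block), lost without Het replicate 2 or 3 or KO replicate 2. Sorcs3, a sorting receptor of neurons, had 30.9, 25.0 and 30.2 CPM in Het and 23.0, 17.7 and 23.5 CPM in KO. KO animals were lower here too, by -0.42 on the log2 scale (SE 0.0820; edgeR adjusted p 0.0257 with the block), but the call was lost without any 1 of the 6 animals. Ntng1, netrin-G1, an axonal adhesion protein, had 69.9, 20.6 and 28.9 CPM in Het and 21.6, 19.2 and 19.1 CPM in KO. Het replicate 1 stood apart and the other animals overlapped. The change of -0.82 (SE 0.175; edgeR adjusted p 0.0453 with the block) became -0.39 and was not called without Het replicate 1, and it was also lost without Het replicate 3, KO replicate 1, KO replicate 3 or WT replicate 2. In GABAergic nuclei Ntng1 was highest in replicate 1 of both genotypes, at 154 CPM in Het and 119 CPM in KO against 64.6 to 81.5 CPM in the others.

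Adhesion and growth factor genes were also among those lower in KO. Cadm2 had 1664, 1442 and 1585 CPM in Het and 1205, 1161 and 1300.4 CPM in KO, with no overlap, a change of -0.34 and an edgeR adjusted p of 0.00206 with the block. Nrg2, a neuregulin that binds ErbB receptors, had 22.6, 20.3 and 22.3 CPM in Het and 16.2, 11.9 and 14.3 CPM in KO, a change of -0.63. Nrg3, of the same family, changed by -0.24 and Efna5, an ephrin that repels axons, by -0.31, each with overlapping groups. Astn2, which takes part in neuronal migration, changed by -0.31 and Rian, an imprinted noncoding RNA, by -0.33. Bean1 had the largest change, -1.35, at 1.01 to 3.81 CPM in the 6 animals. Of the 9 fits that leave out 1 animal, Cadm2 and Nrg2 were called in all 9, Rian in 5 (lost without any 1 Het animal or KO replicate 1), Astn2 and Efna5 in 4 (both lost without any 1 Het animal or KO replicate 1 or 2), and Nrg3 and Bean1 in 3.

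**Figure D3:**
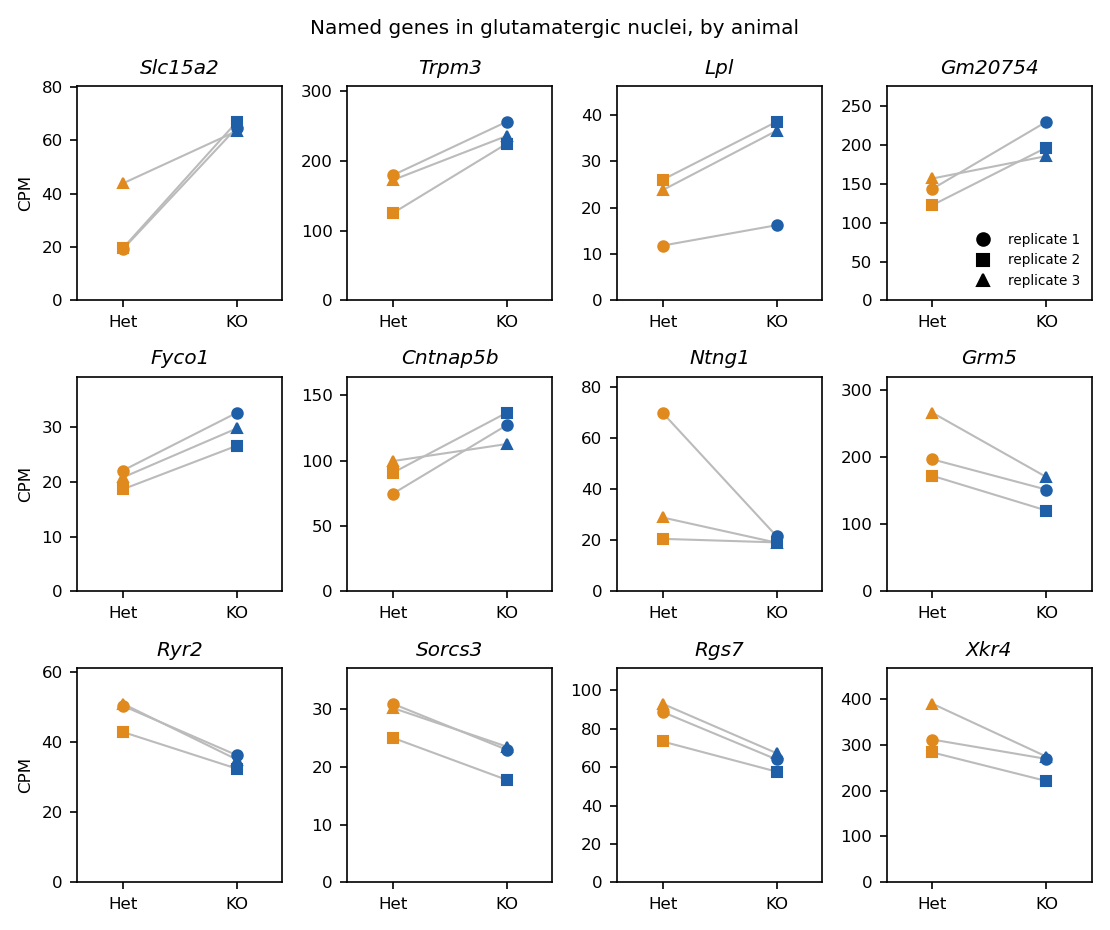
CPM (y axis) in glutamatergic nuclei of the Het and KO animals (x axis) for the 6 genes with the largest change at 20 CPM or more in each direction; lines join animals with the same replicate number. Slc15a2 goes from 19.2 to 43.9 CPM in Het to 63.6 to 67.0 CPM in KO, and Grm5 from 172 to 266 CPM to 120 to 170 CPM.

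Of the 35 genes higher in KO, 24 overlap another annotated gene, and of the 18 lower genes 17 do. These overlaps were counted on either strand, and the share over all genes was not counted. The strand setting of the counting is not stated in the sources at hand. Where the overlapping gene lies on the opposite strand, reads of the pair therefore cannot be told apart.

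Gene lists were read against all 17322 genes, whose median change was -0.0025. Of 23 glutamate receptor genes tested, Grm3 and Gria4 rose and Grm5 fell, and the list's median was -0.04. Of 7 neuregulin and ErbB receptor genes, Nrg2 and Nrg3 fell, with a median of -0.24 (the Nrg3 call was lost without WT replicate 2, any 1 Het animal, or KO replicate 1 or 2), while Nrg1, the most abundant ligand, had a change of 0.09 that was not called. Of 30 genes of the synaptic adhesion list, which does not hold Cadm2, Cntnap5b and Opcml rose (median -0.02), with Opcml lost without Het replicate 1 or 2 or KO replicate 1 or 2. Of 38 voltage-gated channel genes (median 0.0027) Cacna1e was called in the reported fit and in 3 of its 19 alternatives. Slit3 rose among 35 guidance genes (median -0.03) and Efna5 fell among 18 Eph and ephrin genes (median -0.02). None of 13 GABA receptor genes or 33 genes of vesicle release was called, with medians of 0.04 and -0.0048. Over all genes 0.306% were called, and the lists are small, so 1 call moves a list's share far.

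Among regulators, Phf21a rose and the other 20 of 21 corepressor genes of the SIN3, LSD1 and NCoR complexes were not called (median 0.04). Of 15 tested genes that the study singles out, Phf21a alone was called and the median was 0.12; the study chose them on these samples, so they are not independent evidence of direction. None of 19 Notch, 29 Wnt, 12 Hippo or 22 Zbtb genes was called, with medians of -0.0078, 0.02, 0.0010 and -0.04. Summed levels were higher in KO in all 3 same-numbered pairs for the Hippo genes (439 to 476 CPM in Het, 481 to 523 CPM in KO), mostly through Tead1 and Nf2, and for the Notch genes (985 to 1065 and 1037 to 1103 CPM), mostly through Maml2. The corepressor sum was also higher in KO in all 3 pairs, at 2312 to 2461 CPM in Het and 2502 to 2601 CPM in KO. So was the sum of the genes that the study singles out, at 5313 to 5650 and 5411 to 5957 CPM. A sum over a list can follow its most abundant genes and was not tested. With only 3 pairs, agreement in direction can arise readily without any effect. Yap1, a coactivator of the Hippo pathway, had 9.93, 9.43 and 9.61 CPM in Het and 15.1, 11.9 and 12.7 CPM in KO. Its change was 0.45, with an edgeR adjusted p of 0.153 with the block. Changes of the 12 Hippo genes ran from -0.68 to 0.45, and 6 of the 12 were positive.

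Layer and progenitor genes gave few calls. Hs3st4, a heparan sulfate sulfotransferase of deep-layer neurons, was the only one of 15 deep-layer markers called, at 606, 611 and 655 CPM in Het and 661, 818 and 876 CPM in KO, a change of 0.34. That call was lost without Het replicate 2 or 3 or KO replicate 2, with at least 3 marker counts, with no upper limits and without nuclei with progenitor genes. Of the 15 markers 12 had a positive change and 6 an unadjusted p under 0.05, beside 8527 and 1346 of all 17322 genes. None of 12 upper-layer markers was called (median 0.03). None of 24 progenitor and cell cycle genes was called either, with a median of -0.12 and 7 members at an unadjusted p under 0.05, beside 1346 of all 17322 genes. Their sum was 759 to 888 CPM in Het and 729 to 782 CPM in KO, which overlap, but KO was lower in each of the 3 same-numbered pairs. The share of glutamatergic nuclei with a count of any progenitor gene used in the check was 38.9 to 39.5% in Het and 33.8 to 39.2% in KO. Without those nuclei 49 genes were called, and 33 of the 53 were among them. Marker sums of other cells overlapped between the genotypes: radial glia had 165 to 204 CPM in Het and 160 to 183 CPM in KO, and Cajal-Retzius cells 202 to 277 and 159 to 276 CPM. Microglia had 5.69 to 7.16 and 4.20 to 5.81 CPM, vascular cells 5.77 to 10.9 and 4.96 to 10.1 CPM, erythroid cells 7.88 to 11.5 and 8.49 to 9.18 CPM, and oligodendrocyte progenitors 2.03 to 2.99 and 2.03 to 2.19 CPM. Of these last lists only 2 of 6 microglial, 4 of 6 vascular, 3 of 6 erythroid and 2 of 4 oligodendrocyte progenitor genes passed the filter on low counts. Within the same-numbered pairs that the block compares, however, KO was lower in all 3 for radial glia, microglia and vascular cells. The same held for the 9 GABAergic check genes and for the interneuron markers, the last mostly through Zeb2. The neuregulin and ErbB sum was lower in all 3 pairs as well. With only 3 pairs, agreement in direction can arise readily without any effect. Markers of striatal and of other GABAergic neurons (16 and 18 tested) gave no calls in glutamatergic nuclei, with medians of -0.0080 and -0.06. The part of these other cells in the results was not tested.

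The GABAergic class, although larger in summed UMIs, had shallower nuclei in each animal. Median UMIs were 2766 to 3608 in Het and 3035 to 3312.5 in KO for glutamatergic nuclei. They were 2189 to 3012 and 2403 to 2722 for GABAergic nuclei, which gave fewer calls. Without the block none of 19301 genes was called by edgeR (0%) or DESeq2, with 458 genes at an unadjusted p under 0.05. With the block 2 genes were called (0.0104%), 1 higher and 1 lower (0.00518% each), 1055 had an unadjusted p under 0.05, and DESeq2 with the block called 12. Het and KO did not overlap for 1184 genes (6.13%). Rftn2, a lipid raft protein, had 28.2, 29.9 and 23.0 CPM in Het and 36.9, 42.5 and 33.8 CPM in KO. Every KO animal was higher, by 0.49 (SE 0.0641; edgeR adjusted p 0.0391 with the block). Cntn4, a contactin of axons, had 187, 113 and 163 CPM in Het and 145, 82.1 and 117 CPM in KO. The groups overlapped, while KO was lower in each pair, with a change of -0.43 (SE 0.0611; edgeR adjusted p 0.0487 with the block). Each call was lost without any of the 3 WT animals and in most other settings, and no gene was called in every fit with 1 animal left out. The blocked fit called 17 genes in nuclei without progenitor genes.

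The gene lists gave no other GABAergic calls. None of 19 striatal and 20 interneuron markers was called (medians 0.01 and 0.0080). Nor was any of 26 progenitor genes (median -0.00093) or 21 corepressor genes (median 0.04). The progenitor and cell cycle genes summed to 1255 to 1531 CPM in Het and 1225 to 1711.5 CPM in KO. Any progenitor gene used in the check was counted in 32.2 to 36.9% of nuclei in Het and 32.6 to 35.5% in KO. Marker sums of other cells overlapped here too, with radial glia at 203 to 253 CPM in Het and 203.5 to 207 CPM in KO, Cajal-Retzius cells at 253 to 329 and 209 to 369 CPM, and microglia at 6.46 to 9.37 and 7.50 to 9.20 CPM. Phf21a had 566, 627 and 520 CPM in Het and 705, 732 and 637 CPM in KO here, with no overlap and a change of 0.28, but its edgeR adjusted p of 0.121 with the block missed the threshold. Slc9a9, an endosomal sodium and proton exchanger called higher in glutamatergic nuclei by 0.52 (lost there without any 1 of the 6 Het and KO animals), had 87.7, 87.8 and 86.3 CPM in Het and 113, 116 and 106 CPM in KO in GABAergic nuclei, a change of 0.36 with an edgeR adjusted p of 0.121 with the block. Slc15a2 had 4.36, 3.32 and 15.5 CPM in Het and 19.6, 26.0 and 23.4 CPM in KO. It too stood higher in every KO animal, with a change of 1.82 (SE 0.425) and an edgeR adjusted p of 0.364 with the block.

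The 53 glutamatergic genes were set beside the same genes in GABAergic nuclei of the same animals. Their median change in size was 0.41 in glutamatergic and 0.13 in GABAergic nuclei, a gap that their selection in the former widens. In GABAergic nuclei 46 of the 53 changed in the same direction, and the share of all genes that did so was not counted. There 21 of the 53 had an unadjusted p under 0.05, beside 1055 of all 19301 genes, and none was called. Both classes come from the same animals, so they are not independent. The difference between classes was tested in a model of both classes with the animal as a block. None of 19623 genes passed in edgeR (0%), with 837 at an unadjusted p under 0.05. Of the 53 genes 34 were among these 837, which their selection in glutamatergic nuclei favours. So no gene is shown to respond in 1 class only, although some passed with no filter on low counts, as given at the end. In the filtered fit the smallest adjusted p was 0.259, for Cntnap5b, whose change was 0.48 larger in glutamatergic nuclei (SE 0.0751). In GABAergic nuclei that gene had 277, 306 and 319 CPM in Het and 315, 311 and 294 CPM in KO, with overlapping groups. Trpm3 had 234, 198 and 234 CPM in Het and 302, 182 and 208 CPM in KO there, and its change differed by 0.59 between classes (SE 0.116), with an edgeR adjusted p of 0.795 for that difference.

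**Figure D4:**
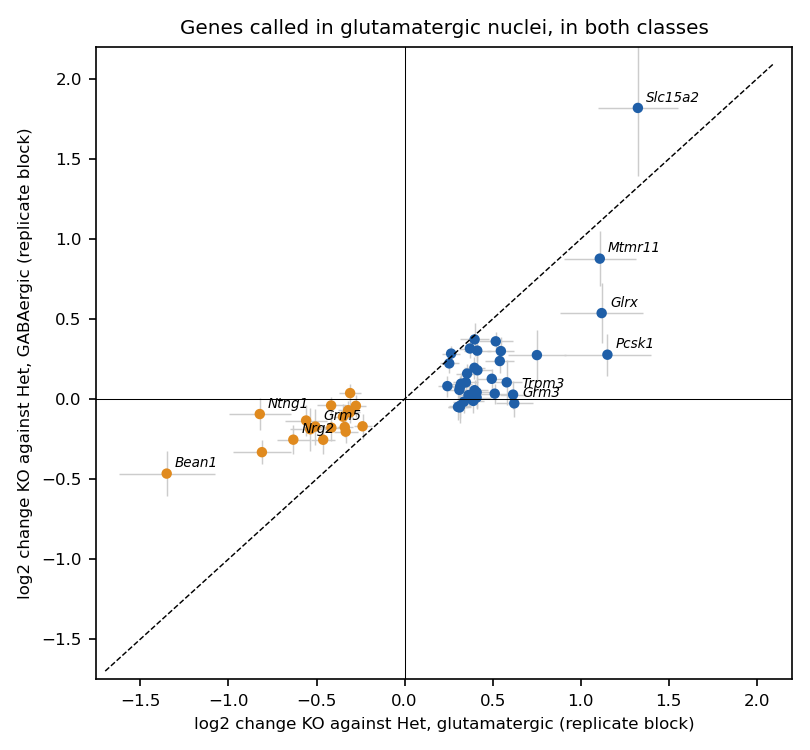
Log2 change from Het to KO with the replicate block in glutamatergic (x axis) and GABAergic nuclei (y axis) for the 53 genes called in glutamatergic nuclei, with bars of 1 SE and the dashed line marking equal change. Most points lie nearer to 0 on the GABAergic axis, with Slc15a2 above the line at 1.32 and 1.82.

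The steps from WT are given beside these values, but Het against WT, KO against Het and KO against WT share animals and are not separate evidence. For the 35 genes higher in KO the median change was 0.03 from WT to Het, 0.40 from Het to KO and 0.47 from WT to KO. For the 18 lower genes the medians were 0.04, -0.42 and -0.41. Trpm3 had 0.12 from WT to Het (not called, edgeR adjusted p 0.823 with the block) and 0.73 from WT to KO, and Ryr2 had 0.05 (not called, adjusted p 0.929) and -0.41. Grm5 had values of -0.38 from WT to Het, which was not called (edgeR adjusted p 0.0689 with the block, 0.99987 without), and -0.88 from WT to KO, with Het replicate 3 inside the WT range. Slc15a2 had -1.08 from WT to Het and 0.24 from WT to KO, neither called (edgeR adjusted p 0.180 and 0.643 with the block). Selecting genes on the Het to KO step favours a Het level near or beyond that of WT, so these medians are a description.

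Promoters of the called genes were searched for the letters AAGTT, the core that factors of the MYT1 family bind, on both strands of the 300 bases around each RefSeq start (GRCm38.p6), mostly upstream of it. Of all 32851 windows 39.3% held it, and of 14905 windows of genes tested in glutamatergic nuclei 32.9%. It was in 23 of 44 windows (52.3%) of the genes higher in KO, where 30 of the 35 genes had a window, and in 5 of 17 windows (29.4%) of the genes lower in KO. Windows of 1 gene are not independent, and a match is neither a bound site nor a cause. Trpm3 and Fyco1 are printed because they were called whichever animal was left out, rose in KO and hold the letters, in capitals below. The Trpm3 window is chr19:22447958-22448257 (+ strand) and the Fyco1 window is chr9:123851612-123851911 (- strand), 1 of the 2 windows of each gene.
Trpm3: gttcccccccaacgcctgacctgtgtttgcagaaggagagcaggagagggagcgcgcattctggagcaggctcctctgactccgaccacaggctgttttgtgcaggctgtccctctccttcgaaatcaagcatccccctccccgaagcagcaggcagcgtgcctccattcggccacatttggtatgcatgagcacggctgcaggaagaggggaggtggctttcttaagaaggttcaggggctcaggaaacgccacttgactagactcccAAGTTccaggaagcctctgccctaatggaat
Fyco1: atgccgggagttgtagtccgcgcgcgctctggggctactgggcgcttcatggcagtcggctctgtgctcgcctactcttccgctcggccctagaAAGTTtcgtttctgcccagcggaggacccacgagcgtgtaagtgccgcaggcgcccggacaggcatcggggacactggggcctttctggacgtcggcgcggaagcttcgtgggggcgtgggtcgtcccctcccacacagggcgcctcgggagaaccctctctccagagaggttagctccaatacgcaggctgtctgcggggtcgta

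The share of each class among the nuclei kept did not separate the genotypes. Glutamatergic nuclei made up 10.7, 17.9 and 16.4% in Het and 14.3, 13.9 and 16.8% in KO, or 15.0% ± 3.79 and 15.0% ± 1.55 (SD, n = 3 animals each). The KO values lie within the Het range, and an exact two-sided permutation test gave p = 1, where 3 against 3 animals allow no p below 0.1. GABAergic nuclei made up 27.0, 27.6 and 28.7% in Het and 24.1, 33.2 and 27.0% in KO, or 27.8% ± 0.897 and 28.1% ± 4.63 (SD, n = 3 animals each; exact permutation p = 1). Here KO replicates 1 and 2 lay on either side of all Het animals. Nuclei with fewer than 2 marker counts or with markers of both kinds fall in neither class, so these are shares of nuclei that the rule could name.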

How the data were processed

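Single-nucleus RNA was measured in the E14 forebrain of 9 embryos in 2 runs. The authors deposited a gene by barcode matrix of estimated counts per library (ScaleRna, mm10); neither the labels nor the methods name the annotation release or the strand setting. In these deposited counts 6.70 to 8.71% of entries were not whole. The labels name Seurat 4.3.0, DESeq2 1.38.3 and Scanpy 1.12.0 for later steps. The study removed multiplets, and whether the matrices precede that step is not known.

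Nuclei with 800 to 6000 UMIs, 300 to 3000 genes and at most 1% mitochondrial UMIs were kept. Counts were summed per animal over both runs within each class and rounded. edgeR 4.0.16 (filterByExpr, TMM, quasi-likelihood F-test, R 4.3.3) was fitted over all 9 animals, with the contrast KO minus Het, two-sided. The design follows the study, genotype alone; the replicate number was added as a block in a second fit. Same-numbered Het and KO animals deviated together from their group means, so blocked values stand beside the others. Correlations across genes over 10 CPM were 0.522, 0.371 and 0.390 in glutamatergic and 0.450, 0.612 and 0.342 in GABAergic nuclei, all over 0.1. Differently numbered animals gave -0.393 to 0.0568 and -0.558 to 0.0509. The correlations are not independent, since deviations from a group mean cancel out and both classes come from the same animals. Whether WT animals pair with the others was not checked, although the block covers them. The E14 tissue came from 3 litters per the methods, which do not say that the number is the litter. Without the block the p-values measure the spread between embryos of a genotype. With it they measure the spread left once differences between replicate numbers are removed. CPM are per 1000000 UMIs of the class, without TMM factors. Promoter windows of 1 chromosome were not searched. Shares were compared by exact permutation tests. DESeq2 1.42.0, other scaling and filters, single runs and each animal left out were alternatives. The scripts were tested on simulated data.

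Genes named are Myt1l and, in each class, the called genes with the largest changes at 20 CPM or more, sex-linked and marker genes left out, filled to 6 in a direction from the blocked fit. Others given (such as Grm3, Gria4, Cadm2, Nrg2, Phf21a and Yap1) are list members or were chosen after their values were seen. The comparison, the classes and the lists were chosen with earlier results of these data known. A list of 14 genes from KO against WT was not used, since it shares the KO animals.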

Additional observations from a re-analysis of the deposited data

How the results depend on the processing

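Alternatives for the blocked fit were chosen after seeing the data; the others were planned. Without the block, 0 glutamatergic genes were called; this became 53 with the replicate block, 1 with at least 3 marker counts, 59 with no filter on low counts and 7 with DESeq2, and leaving out single animals gave 0 to 0. GABAergic nuclei went from 0 to 2 with the block and 33 with no filter. With the block, the 53 glutamatergic calls became 0 in run 1 alone, 25 with at least 3 marker counts, 157 with no filter and 31 with DESeq2, and leaving out single animals gave 11 to 106 (18 and 19 without Het replicates 1 and 3). The 2 GABAergic calls with the block became 0 in run 1 alone, 0 in run 2 alone, 0 with at least 3 marker counts, 17 without nuclei with progenitor genes, 1 with RLE scaling, 94 with no filter and 12 with DESeq2, and leaving out single animals gave 0 to 17 (5 without Het replicate 1). Of the genes called with no filter, 56 of 59, 153 of 157, 25 of 33 and 85 of 94 in these fits also pass the filter. Differences between the classes went from 0 to 80 with no filter and 1 in run 2 alone, and to 0 to 3 without single animals. All 80 genes also pass the filter, so they are not low-count genes. The cause of these shifts was not tested.

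The difference in glutamatergic share, 0.0192 percentage points, reversed to -0.392 in run 2 alone and -0.213 with at least 3 marker counts, and ranged from -2.12 to 1.47 without single animals. The GABAergic difference of 0.323 ranged from -2.22 to 2.31. With the replicate block both differences stay the same by arithmetic, so that setting is no check. For the named genes none of 320 values without the block or 304 with it changed direction, and 74 of the latter were no longer past the threshold. Apart from Myt1l, these genes were picked for their change in the blocked fit, which favours a kept direction. Trpm3 ranged from 0.38 to 0.84 and Grm5 from -0.70 to -0.38 with the block. Run 1 holds 440 to 865 glutamatergic nuclei per animal and 24.6% of the glutamatergic UMIs, and whether that sets its count of calls was not tested.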
